A study of Macaca mulatta with 16 samples.

Results

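In T cells from the blood of 2 rhesus macaques, 200 stretches of the genome had an open-chromatin pattern in memory CD4+ cells that none of the other sorted populations had. Of these, 168 were open in all 4 memory CD4+ libraries and in none of the other 12, and 32 were open in all of the other 12 libraries and in none of the 4 from memory CD4+ cells. They were picked from 55449 regions, made by merging every peak of the 16 libraries that shared at least 1 bp with another, and a library with a peak in a region counted it as open. The first kind was 0.303% of all regions and the second 0.0577%. Since the pattern of peaks chose these regions, the 2 counts describe the choice and carry no test.

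Memory CD4+ T cells descend from naive helper cells that have met their antigen. In blood they are a mixture of central and effector memory cells, helper types with different cytokine programmes, and regulatory cells. ATAC-seq uses a transposase that inserts into DNA not wrapped in nucleosomes, so its peaks mark promoters, enhancers and other elements that are accessible in a cell. Elements accessible in one T cell type and not in its relatives are mostly distal, and many lie in runs along one stretch of a chromosome, where they can act as enhancers of a nearby gene.

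Cells of 4 populations were sorted from peripheral blood, namely memory CD4+, naive CD4+, memory CD8+ and naive CD8+ T cells. Each population was taken after and before 2-hydroxypropyl-beta-cyclodextrin, a cyclic oligosaccharide that takes up cholesterol. It was given under the skin each day at 1 ml/kg of a 15% (w/w) solution for up to 120 days. The animals are described as healthy rhesus macaques, RhDBCb (animal 1) and RhM22 (animal 2), with no age, strain or gene alteration in the labels. Each group of population and time had 1 library per animal, made from 10000 sorted cells. No animal was sampled at both times without the drug, so treatment and the passage of time cannot be told apart. The surface markers of the sort are not in the labels used here. The identity of the populations could not be checked against marker genes, because no gene annotation of the build, rheMac10, was used. Regions are therefore given by position alone.

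Lists held 36307 to 42034 peaks, and the number of reads behind them was unknown, so a region without a peak was not detected as open and was not shown to be closed. Of the 55449 regions, 24333 were open in every library and 31116 were not. One library stood apart from its population. The memory CD8+ library of animal 1 taken before treatment was read on the regions that the other 15 libraries set apart. It had a peak in 35.1% of 259 regions open in memory CD4+ alone, against 4.0% to 7.18% in the other 3 memory CD8+ libraries. It also had a peak in only 55.2% of 58 regions missing in memory CD4+ alone, against 94.1% in each of the other 3. On regions open in memory CD8+ cells alone it had 82.6%, against 84.2% to 92.6%. Whether memory CD4+ cells in that sort take part in these values was not tested. The memory CD4+ library of animal 1 after treatment, the longest list at 42034 peaks, was not marked as far from its group and had a peak in 43.9% of 57 regions that the other 15 libraries set apart as missing in memory CD4+ cells. The other 3 memory CD4+ libraries had 3.03% in animal 1 before, and 5.88% after and 28.9% before in animal 2, each on the regions set apart without it. Without the memory CD8+ library 259 regions were open and 58 missing in memory CD4+ cells alone, and all 168 and all 32 members were among them.

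The regions open in memory CD4+ cells alone were weak and narrow peaks in the lists they came from. Strength is given as the percentile of the area score, the peak caller's summed signal over a peak, within the library's own list. A low percentile means that most peaks of that list scored higher. Over the 168 regions the median percentile was 20.9 after and 14.1 before treatment in animal 1, and 17.8 after and 21.8 before in animal 2. The mean of the 4 libraries was 18.6 ± 3.50 (SD, n = 4). Regions open in all 16 libraries had a median percentile of 68.2. All 31116 regions not open in every library had 20.7, so a low rank was not particular to the members. In the 4 memory CD4+ libraries the median width of the peaks was 679.5 to 770.0 bp in the members, against 1595 to 1717 bp in the regions open everywhere. As merged regions, the members had a median width of 930 bp, against 855 bp for all regions not open in every library. In 97 of the 168, the weakest of the 4 peaks had an area score under 300, close to the lowest score of 200.0 in any list. The median −log10 p at the summit was 3.22 to 3.41 in the 4 memory CD4+ libraries, on the members, and 5.25 to 5.60 on the regions open everywhere.

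Only 1 of the 168 had a mean percentile over 50. It lay on chromosome 10 at 86693646 to 86696908 and spanned 3263 bp. Its percentile was 78.2 after and 75.2 before treatment in animal 1, and 62.9 at both times in animal 2, so animal 1 was higher at either time. The second strongest, on chromosome 2 at 14682802 to 14684905, had percentiles of 47.9 after and 45.9 before in animal 1, and 47.5 after and 52.1 before in animal 2. Its summits lay within 4 bp of one another in the 4 libraries, and its values overlapped between the animals and between the times. The third, on chromosome 7 at 154923496 to 154924550, had 40.0 after and 40.9 before in animal 1, and 41.0 after and 52.3 before in animal 2. The region that ranked seventh, on chromosome 1 at 96593641 to 96594683, varied most among these, with 43.9 after and 16.2 before in animal 1 against 49.4 after and 47.7 before in animal 2. The remaining 8 of the 12 strongest had mean percentiles of 37.1 to 43.1. Of these, 3 more lay in the same stretch of chromosome 2, and 1 opened a group on chromosome 7 at 137651044 to 137653248. The other 4 had no member within 50 kb. They were found on chromosome 12 (48144046 to 48145332), chromosome 11 (13406747 to 13408102), chromosome 3 (129079534 to 129081032) and chromosome 10 (48513202 to 48514681). At the other end, the 3 weakest had mean percentiles of 1.74, 2.40 and 3.08. They were 553 to 560 bp wide and lay on chromosome 7 (51875532 to 51876088), chromosome 16 (39307476 to 39308028) and chromosome 4 (166194661 to 166195220). In 27 of the 168 the mean percentile was under 10.

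**Figure D1:**
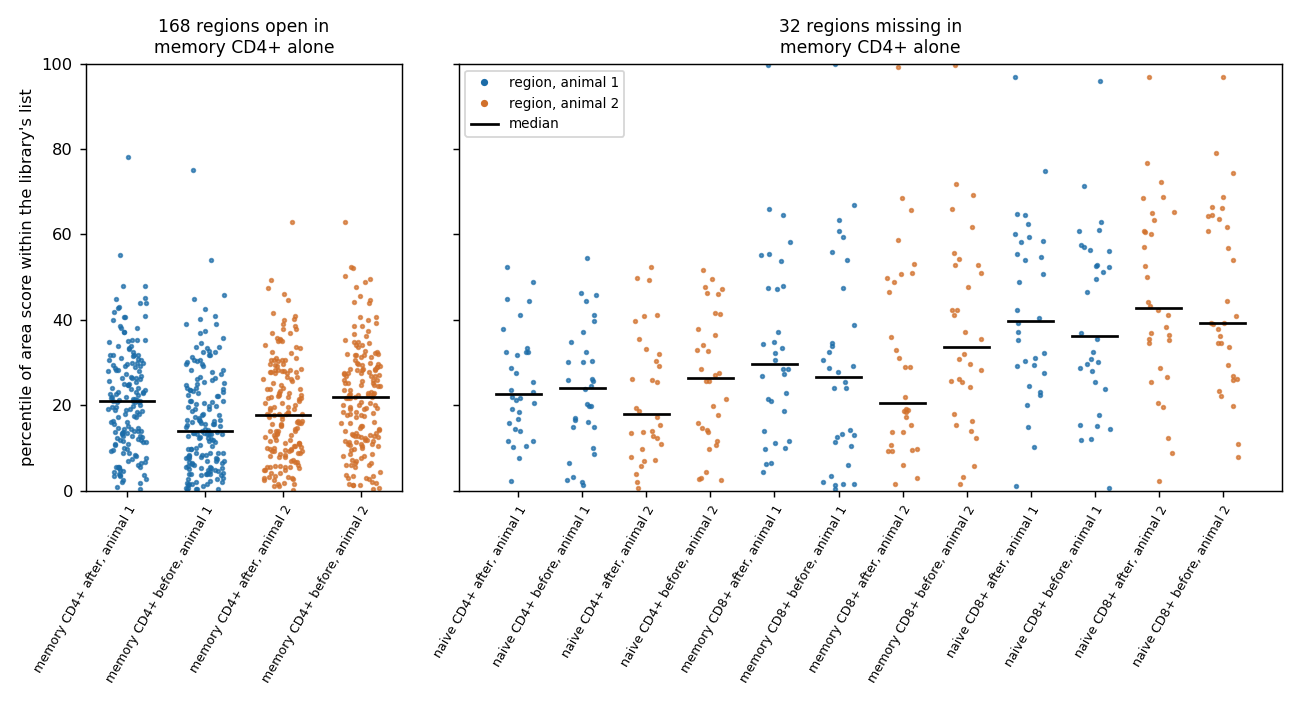
Percentile of the area score within its library's list (vertical axis) for each of the 168 regions open in memory CD4+ cells alone (left) and the 32 missing in memory CD4+ cells alone (right). Each point is 1 region in 1 library, coloured by animal, and the black line is the median. The medians of the left panel lie between 14.1 and 21.8, and those of the 4 naive CD8+ libraries on the right, 36.2 to 42.8, lie above those of the other 8 libraries.

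Overlap of the 4 peaks follows in part from the merging that made the regions. In 158 of the 168 regions each library had exactly 1 peak, and in 162 all 4 libraries shared at least 1 base. The distance between the outermost of the 4 summits had a median of 63.5 bp and was at most 100 bp in 104 regions (61.9%). For regions open in all 16 libraries, with summits compared over the same 4 libraries, the median was 29.0 bp and 69.6% were within 100 bp. For regions open in the 4 memory CD4+ libraries and 1 to 11 others it was 40.5 bp, with 69.0% within 100 bp, so the median of the members was above both. The nearest peak of another library was usually several kb away. Its median distance from a member was 7.10 to 7.63 kb in memory CD8+ libraries other than that of animal 2 after treatment, where it was 8.17 kb. It was 8.04 to 8.72 kb in naive CD4+ and 12.7 to 14.9 kb in naive CD8+ libraries. Between 4 and 16 of the 168 had a peak of a given library within 1 kb. The nearest region open in every library was at a median of 16.3 kb from a member, and 61 members had one within 10 kb.

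Some of these regions lay in runs. Of the 31116 regions not open in every library, 88.0% had another such region within 50 kb. That set is far larger, so its share is no matched background, and runs were not shown to be particular to the members. Joined where at most 50 kb apart, 42 of the 168 formed 16 groups, 5 of which had 3 or more members. The largest held 7 members on chromosome 2 from 14673713 to 14752328, a stretch of 78.6 kb that includes 4 of the 12 strongest. Their mean percentiles ran from 26.9 to 48.3. Going along the chromosome, the members began at 14673713, 14682802, 14689848, 14700386, 14710900, 14731626 and 14750594. None of the 14 regions in the stretch was open in every library. The 7 that were not members were open most often in memory CD4+ cells, and next in memory CD8+ cells of animal 1. Memory CD4+ libraries had peaks in 6 after and 6 before treatment in animal 1, and in 5 after and 5 before in animal 2. For memory CD8+ cells the numbers were 4 after and 6 before in animal 1 and 2 after and 2 before in animal 2. The 6 came from the library that stood apart, as many as in the memory CD4+ libraries of animal 1. For naive CD4+ cells the numbers were 1 and 2 in animal 1 and 2 and 3 in animal 2. No naive CD8+ library had a peak anywhere in the stretch.

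**Figure D2:**
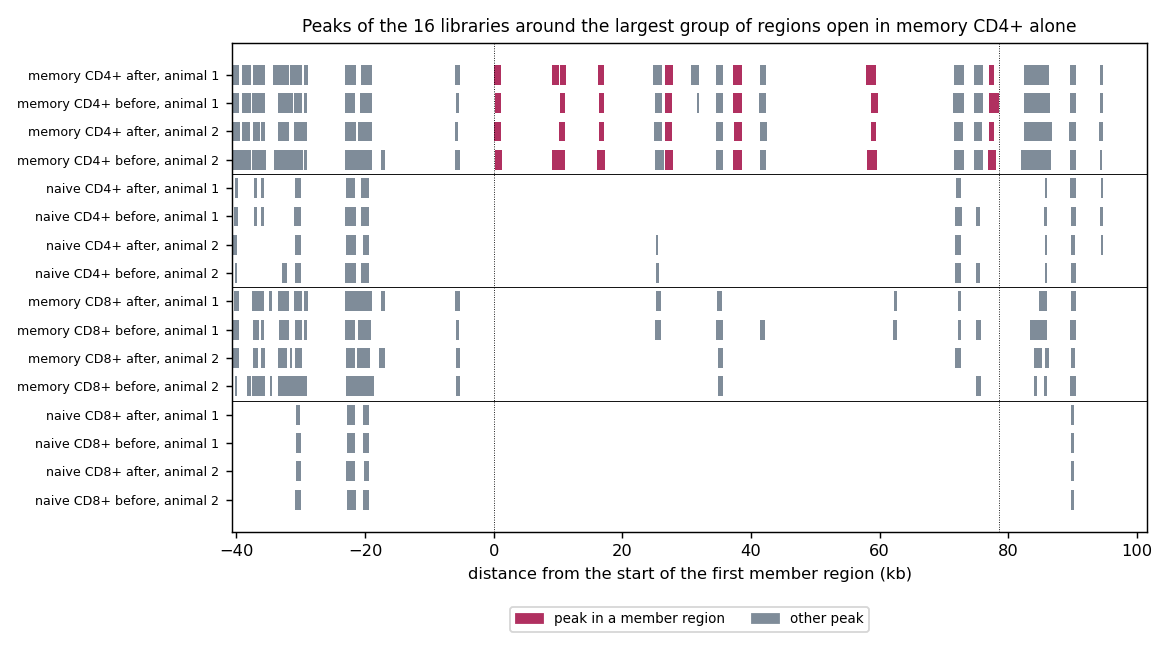
Peaks of the 16 libraries (1 line each, grouped by population) in and around the largest group of regions open in memory CD4+ alone, drawn by distance in kb from the start of its first region. Dark red bars are peaks in the 7 member regions and grey bars are all other peaks. Between the dotted lines, which bound the 78.6 kb stretch, the 4 naive CD8+ libraries had no peak.

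The other groups of 3 or more were smaller. A group of 4 on chromosome 7 from 154886123 to 154929352 had mean percentiles of 17.0 to 43.6. Only 1 of its 7 regions was open in every library. A second group on that chromosome, of 3 members from 137651044 to 137686809, differed between the animals at 2 of its members. The first of these had percentiles of 55.2 after and 54.0 before in animal 1, and 29.6 after and 30.5 before in animal 2. The other had 28.0 after and 27.9 before in animal 1 against 13.1 after and 13.4 before in animal 2, while the third overlapped between the animals. A group of 3 on chromosome 15 from 102802351 to 102832943 spanned 30.6 kb, with 1 region in it that was no member, open in both memory CD4+ libraries of animal 1 and in no other library. The last group, on chromosome 10 from 82871666 to 82905026, held 3 weak members with mean percentiles of 13.9 to 19.8. Over the chromosomes, 21 of the 168 members (12.5%) lay on chromosome 4, which held 6.45% of all regions, and 4 (2.38%) on chromosome 1, which held 9.98%. These shares were not tested.

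Strength of the 168 did not move one way with treatment. In animal 1 the median percentile was 6.82 higher after than before, and 70.2% of the regions had the higher rank after. In animal 2 it was 4.0 lower after than before, and 39.3% had the higher rank after. With 2 animals the smallest p that a paired test could give is 0.5, so none was made. In 44 of the 168 (26.2%) the rank was higher after in both animals, beside 40.0% of the 32403 regions open in all 4 memory CD4+ libraries. It was lower after in both animals in 28 (16.7%), beside 17.9%. The remaining 96 moved in opposite directions. Between the animals, both libraries of animal 2 were above both of animal 1 in 45 regions (26.8%), beside 19.8% of the 32403. The reverse held in 28 regions (16.7%), beside 21.9%. The regions open in every library had the higher rank after treatment in 72.5% of cases in animal 1 and 54.3% in animal 2, so a shift with the library as a whole stood beside that of the members in animal 1.

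Whether memory CD4+ cells are set apart in this way in libraries that took no part in the choice was tested by choosing regions in 1 animal and reading the other. In animal 1 alone, 582 regions were open in both memory CD4+ libraries and in none of the other 6, and in animal 2 alone there were 722. All 168 members were in both sets (28.9% and 23.3% of them), as their definition requires. The test therefore concerns these wider sets and is no test of the 168. The limits of the regions came from the peaks of all 16 libraries. Read in the other animal, the regions were open at 76.6% after and 65.8% before treatment in the memory CD4+ libraries of animal 1, and at 62.5% after and 66.2% before in those of animal 2. Naive CD4+ libraries had peaks in 13.7% to 17.7% of them and naive CD8+ libraries in 1.80% to 6.36%. In memory CD8+ cells the value was 17.5% after and 32.5% before in animal 1, and 10.1% after and 13.7% before in animal 2. The 4 memory CD4+ libraries, at 67.8% ± 6.10 (SD, n = 4), did not overlap the other 12, at 12.8% ± 8.39 (SD, n = 12), and the difference of 55.0 points had p = 0.000549 (exact permutation test over libraries, two-sided). This is the smallest p that the 1820 ways to place 4 labels on 16 libraries allow, and it was the same after Benjamini-Hochberg adjustment over 4 such tests. Regions were also chosen at 1 time and read at the other, in the same 2 animals that had served for the choice. The 168 members made up 26.7% of the 630 regions chosen after treatment and 45.0% of the 373 chosen before. By definition members have a peak in every memory CD4+ library and in no other, which widens the difference. Memory CD4+ libraries had peaks in 73.5% ± 5.79 (SD, n = 4) and the others in 8.23% ± 7.18 (SD, n = 12), with the same exact permutation p of 0.000549. Without the memory CD4+ library of animal 1 after treatment and the memory CD8+ library that stood apart, the differences were 46.9 points in the reading across animals and 50.3 points in that across times (adjusted p = 0.00275 each, exact permutation test). All libraries come from 2 animals, so the p-values rest on the spread of libraries and say little about how animals vary.

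**Figure D3:**
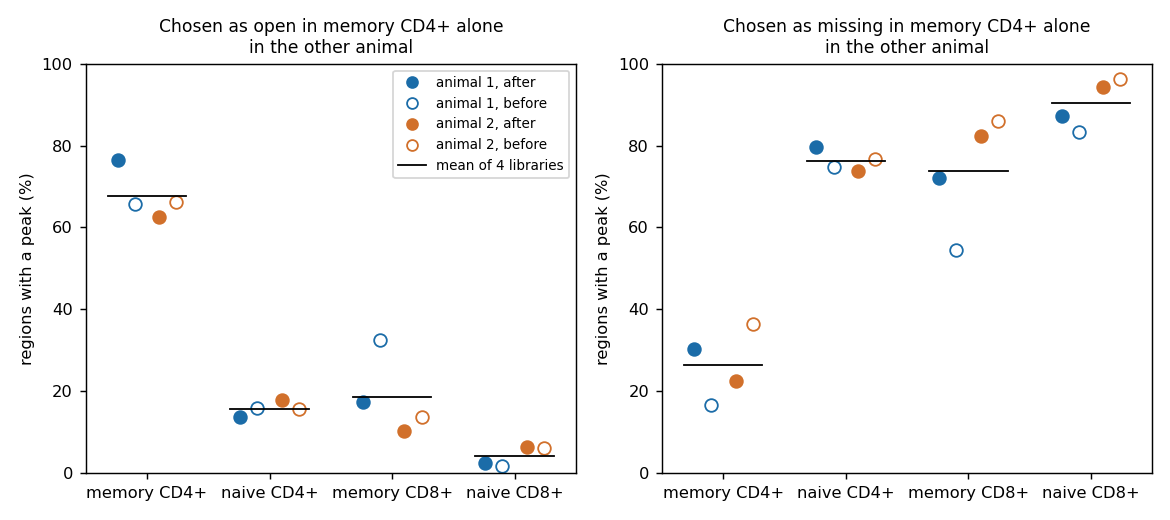
Percent of regions with a peak in each library (vertical axis), for regions chosen in the other animal as open (left) or missing (right) in memory CD4+ cells alone. Filled points were taken after and open points before treatment, colours give the animal, and lines are the mean of 4 libraries. The memory CD4+ libraries lie at 62.5% to 76.6% on the left and 16.6% to 36.4% on the right, apart from all others.

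The surroundings of the 168 regions were open more often in memory CD4+ cells as well. Within 50 kb of them lay 631 regions that were neither members nor open in every library. Memory CD4+ libraries had peaks in 61.2% to 68.5% of these neighbours. This was 22.9 ± 2.29 points (SD, n = 4) above their share over all regions not open everywhere. The difference from that share was 1.73 ± 2.32 points in naive CD4+, −1.11 ± 1.81 in memory CD8+ and −15.7 ± 2.56 in naive CD8+ libraries (SD, n = 4 each). Among the 631, 26 (4.12%) were open in all memory libraries of both lineages and in no naive one, beside 1.52% of all regions not open everywhere. Another 19 (3.01%) were open in all CD4+ libraries of both states and in no CD8+ one, beside 0.556%. Since the members were chosen on the same libraries, these values carry no test. Neighbours of regions chosen in 1 animal were read in the other for one. They stood 16.9 ± 2.02 points above the share of all such regions in memory CD4+ libraries (SD, n = 4) and −2.46 ± 6.06 points from it in the other libraries (SD, n = 12). The difference of 19.3 points had p = 0.000549 (exact permutation test, two-sided, also after adjustment over 2 tests). With neighbours at least 5 kb away it was 18.1 points.

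**Figure D4:**
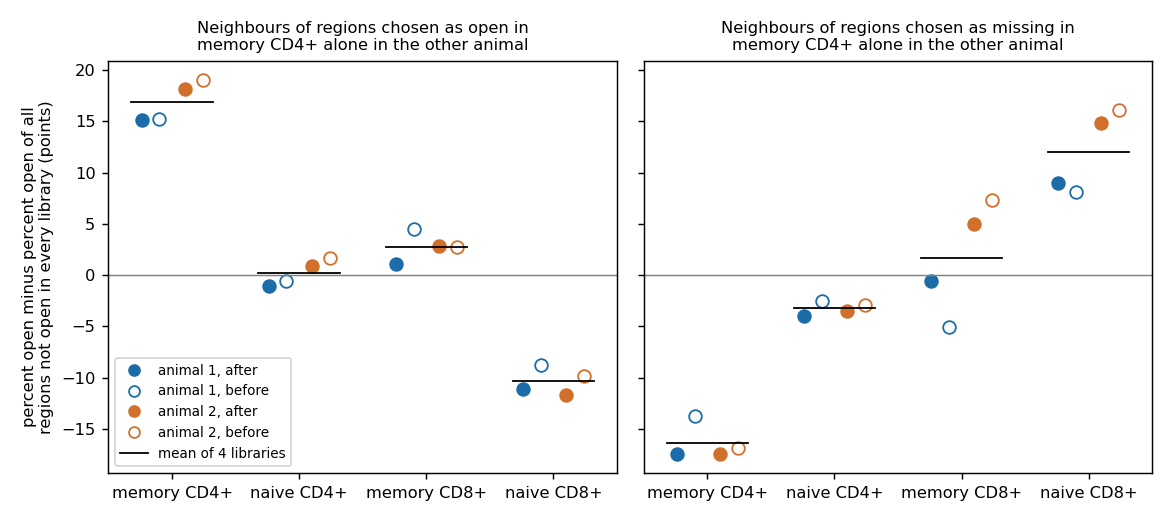
Openness around regions chosen in the other animal. The vertical axis is the percent of neighbours within 50 kb that had a peak in a library, minus the same over all regions not open in every library, in percentage points; symbols are 1 library each and lines are means of 4. On the left, around regions open in memory CD4+ alone, memory CD4+ libraries lie at 15.1 to 19.1 points and naive CD8+ libraries at −11.7 to −8.75 points, and on the right memory CD4+ libraries are lowest, at −17.5 to −13.8 points.

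The regions just outside the rule hold those added above when a library was left out. There were 183 regions open in the 4 memory CD4+ libraries and exactly 1 other. In 91 of these the other was the memory CD8+ library of animal 1 before treatment, against 0 to 20 for each of the other 11. The extra peak was weak, with a median percentile of 12.6, while the 4 memory CD4+ peaks resembled those of the members in strength (a median of the mean percentile of 20.7, against 18.2 for the members). Another 183 regions were open in 3 memory CD4+ libraries and no other library. The one without a peak was that of animal 1 before treatment in 81, and these regions were weaker still, with a median of 10.4. Regions open in memory CD4+ cells and in 1 further whole population were more common than members in memory CD8+ cells (472) and about as common in naive CD4+ cells (173), and there were 0 with naive CD8+ cells.

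**Figure D5:**
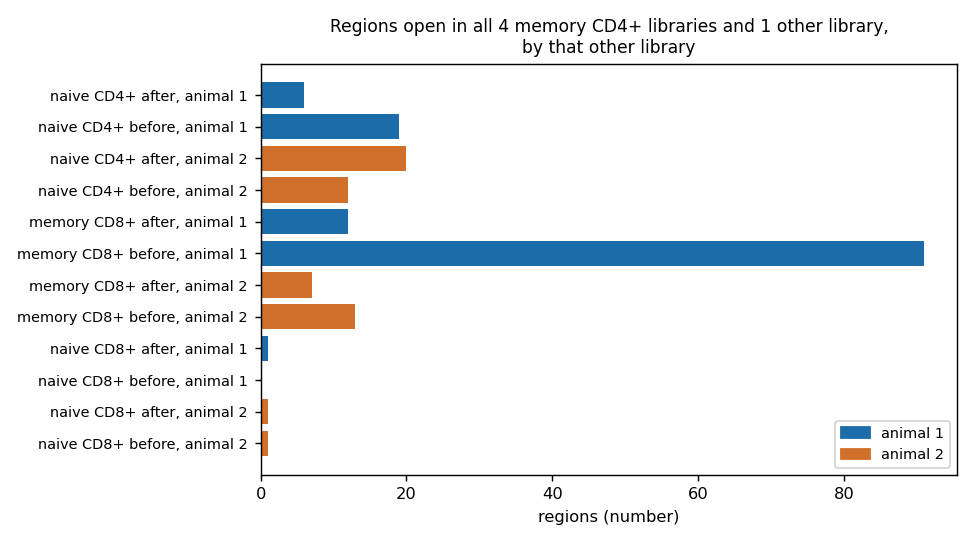
Number of regions open in all 4 memory CD4+ libraries and exactly 1 other library (horizontal axis), by that other library (vertical axis) and coloured by animal. Of the 183 regions, 91 belong to the memory CD8+ library of animal 1 before treatment, and the naive CD8+ libraries hold 0 or 1 each.

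Compared with the regions that each other population had to itself, those of memory CD4+ cells were as weak as those of naive CD4+ cells and weaker in rank than those of memory CD8+ cells. The library medians averaged 18.6 ± 3.50 for the 168 regions, against 17.3 ± 2.29 for those of naive CD4+, 29.3 ± 3.51 for 944 of memory CD8+ and 24.4 ± 6.29 for 212 of naive CD8+ cells (SD, n = 4 libraries each). A neighbour of their own set within 50 kb was found for 42 of the 168 memory CD4+ regions and 11 of the naive CD4+ (9.09%). It was found for 349 of the 944 memory CD8+ (37.0%) and 45 of the 212 naive CD8+ regions (21.2%). The share was thus highest for memory CD8+ regions. These sets differ in size and none of these differences was tested.

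The 32 regions missing in memory CD4+ cells alone were few. Memory CD8+ cells alone lacked 461 and naive CD8+ cells 141. The peaks in them had median widths of 698.5 to 750.0 bp in naive CD4+, 763.0 to 949.0 bp in memory CD8+ and 994.0 to 1098.5 bp in naive CD8+ libraries. They lay alone, since no 2 of them were within 50 kb of each other. In 27 of the 32 each of the 12 libraries had exactly 1 peak, and in 30 all 12 shared at least 1 base. The summits of the 12 libraries lay within 100 bp of one another in 15 regions. In 22 regions the weakest of the 12 peaks had an area score under 300.

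Rank among the 3 populations that had these peaks was uneven, with naive CD8+ cells highest. Over the 32 regions the median percentile was 39.8 after and 36.2 before treatment in naive CD8+ cells of animal 1, and 42.8 after and 39.2 before in animal 2. In memory CD8+ cells it was 29.6 after and 26.6 before in animal 1, and 20.5 after and 33.7 before in animal 2. In naive CD4+ cells it was 22.5 after and 24.1 before in animal 1, and 17.9 after and 26.4 before in animal 2. The naive CD8+ values did not overlap those of the other populations. Naive CD4+ cells averaged 22.7 ± 3.56 and naive CD8+ cells 39.5 ± 2.71 (SD, n = 4 each), a difference of −16.8 points with the same sign in 4 of 4 pairs of libraries of one animal and time. Memory CD8+ cells, at 27.6 ± 5.53 (SD, n = 4), were −11.9 points from naive CD8+ cells. Naive CD4+ minus memory CD8+ was −4.88 points, with libraries that overlapped as groups and the same sign in 4 of 4 pairs. When regions were chosen anew without the memory CD8+ library that stood apart, it was 2.73 points. That value was read on 58 missing regions in place of the 32. As the regions were chosen with these libraries, these values carry no p.

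Region by region, naive CD8+ cells were highest in most. Naive CD8+ cells had the highest mean percentile in 22 of the 32 regions (68.8%), beside 25.1% of the regions open in every library. Naive CD4+ cells had the lowest in 17 (53.1%), beside 24.5% of the regions open everywhere, and memory CD8+ cells in 12 (37.5%), beside 44.9%. All 4 naive CD8+ libraries ranked above all 4 naive CD4+ libraries in 17 of the 32 (53.1%), beside 6.1% of the 24645 regions open in the 12 libraries. They ranked above all 4 memory CD8+ libraries in 11 (34.4%), beside 13.4%. All 4 memory CD8+ libraries were above all 4 naive CD4+ libraries in 8, beside 14.6%, and above all 4 naive CD8+ libraries in 4 (12.5%), beside 14.7%. Naive CD4+ libraries were wholly above memory CD8+ libraries in 1 (3.12%), beside 19.5%, and above naive CD8+ libraries in 0, beside 9.54%. Most of the 24645 were the 24333 regions open in every library, with a median percentile of 68.2 against 30.2 for the 32. The shares were thus not matched for strength. The rule also required that memory CD4+ cells had no peak, and whether this bears on the order of the others was not tested.

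The strongest region missing in memory CD4+ cells was of another size than the rest. It lay on chromosome 13 at 19088742 to 19102002, spanned 13261 bp and held 32 peaks of the 12 libraries. In memory CD8+ cells its strongest peak was at percentile 99.7 after and 99.8 before treatment in animal 1, and 99.3 after and 99.8 before in animal 2. Most of this was a single peak, of 10454 and 10390 bp in animal 1 after and before, and of 8040 and 10557 bp in animal 2. In naive CD8+ cells the strongest peak was at 96.8 after and 95.9 before in animal 1, and 97.0 after and 96.9 before in animal 2. Naive CD4+ libraries each had 1 peak of 1402 to 1603 bp there, at percentiles of 18.3 after and 32.5 before in animal 1 and 25.5 after and 37.7 before in animal 2. Both CD8+ populations thus had a peak near the top of their lists where naive CD4+ cells had a weak one and memory CD4+ cells had none.

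A few more of the 32 showed that order less steeply. The second, on chromosome 6 at 170326943 to 170329700, had mean percentiles of 28.7 in naive CD4+, 67.0 in memory CD8+ and 70.9 in naive CD8+ cells. The sixth, on chromosome 4 at 10611160 to 10613219, had 11.8 in naive CD4+, 65.2 in memory CD8+ and 58.3 in naive CD8+ cells, and its weakest library was the naive CD4+ library of animal 1 before treatment, at 1.39. The fifth, on chromosome 1 at 29974415 to 29976234, had 30.3, 60.9 and 61.0 in naive CD4+, memory CD8+ and naive CD8+ cells. In all 3 every CD8+ library ranked above every naive CD4+ library.

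Others were weakest in memory CD8+ cells. The seventh, on chromosome 1 at 132773008 to 132774315, had mean percentiles of 44.4 in naive CD4+, 24.6 in memory CD8+ and 65.8 in naive CD8+ cells. Its memory CD8+ values were 18.6 after and 1.31 before in animal 1, and 35.9 after and 42.4 before in animal 2. Those ranked 9 and 10, on chromosome 1 at 69653090 to 69654694 and chromosome 11 at 45912061 to 45913435, had 42.2 and 41.5 in naive CD4+, 31.3 and 27.0 in memory CD8+, and 54.5 and 57.8 in naive CD8+ cells. The fourth, on chromosome 12 at 120835381 to 120837748, had 48.2, 44.0 and 64.5 in naive CD4+, memory CD8+ and naive CD8+ cells. Its memory CD8+ values were 47.1 after and 25.5 before in animal 1, and 50.7 after and 52.8 before in animal 2, so its low mean rested on the library that stood apart. The other 2 of the 10 strongest, on chromosome 13 at 99074487 to 99076116 and chromosome 8 at 80993870 to 80995158, were lowest in naive CD4+ cells, at 48.2 and 28.5. The 2 weakest had mean percentiles of 15.0, on chromosome 3 at 31370711 to 31371294, and 13.4, on chromosome 7 at 154769998 to 154770884. The last lay 115.2 kb from the group of 4 regions on chromosome 7 that were open in memory CD4+ cells alone.

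The ranks of the 32 had no shared direction after treatment. Over the 6 pairs of libraries of one animal and population, the median percentile was −2.16 ± 7.12 points after minus before (SD, n = 6), and 3 of the 6 pairs had that sign. The 6 libraries taken after treatment averaged 28.9 and the 6 taken before averaged 31.0.

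In the held-out reading, 107 regions were missing in memory CD4+ cells alone in animal 1 and 211 in animal 2. All 32 members were in both sets (29.9% and 15.2% of them), as their definition requires, so the test concerns the wider sets. Read in the other animal, memory CD4+ libraries had peaks in 30.3% of the chosen regions after and 16.6% before treatment in animal 1, and in 22.4% after and 36.4% before in animal 2. Naive CD8+ libraries had 83.4% to 96.3% and naive CD4+ libraries 73.8% to 79.6%. Memory CD8+ cells had 72.0% after and 54.5% before in animal 1, and 82.2% after and 86.0% before in animal 2. Memory CD4+ libraries averaged 26.4% ± 8.73 (SD, n = 4) and the other 12 averaged 80.1% ± 11.1 (SD, n = 12), a difference of −53.6 points (exact permutation test, two-sided, p = 0.000549, also after adjustment). Chosen at 1 time and read at the other, the values were 23.8% ± 16.5 (SD, n = 4) and 89.8% ± 10.6 (SD, n = 12), with the same exact permutation p of 0.000549. Without the same 2 libraries the differences were −45.4 points across animals and −50.6 points across times (adjusted p = 0.00275 each, exact permutation test). In the reading across times, the widest gap within memory CD4+ cells was in animal 1, with 46.6% after and 7.08% before. Each value was read on the regions chosen at the other time, so the sets of regions differed. Across animals, where both were read on the same regions, these libraries had 30.3% after and 16.6% before.

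Neighbours of the 32 regions were open less often in memory CD4+ cells. Within 50 kb lay 150 regions that were neither members nor open everywhere, of which memory CD4+ libraries had peaks in 22.7% to 30.0%. That was −15.6 ± 2.33 points (SD, n = 4) from their share over all such regions, against 16.1 ± 2.64 in naive CD8+, 12.1 ± 3.60 in memory CD8+ and −0.697 ± 2.63 in naive CD4+ libraries (SD, n = 4 each). In 12 of the 150 (8.0%), all memory CD8+ libraries and no others had a peak, beside 3.03% of all regions not open everywhere. Another 7 (4.67%) were open in all naive libraries and in no memory one, beside 1.19%. All CD8+ libraries and no CD4+ one had a peak in 6 (4.0%), beside 0.662%, and naive CD8+ libraries alone in 3 (2.0%), beside 0.681%. There were 0 open in memory cells of both lineages alone (beside 1.52%), in CD4+ cells of both states alone (0.556%) or in naive CD4+ cells alone (0.389%). In the held-out reading the neighbours stood −16.4 ± 1.76 points from the share of all such regions in memory CD4+ libraries (SD, n = 4) and 3.48 ± 7.56 in the others (SD, n = 12). The difference was −19.9 points (exact permutation test, two-sided, p = 0.000549, also after adjustment over 2 tests).

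At the edge of the rule for missing regions, the counts restate by region the shares given above for single libraries. Of 47 regions open in 11 of the other 12 libraries and in no memory CD4+ library, the one without a peak was the memory CD8+ library of animal 1 before treatment in 26, and 0 to 4 for each of the others. Of 41 regions open in the other 12 and in exactly 1 memory CD4+ library, that library was animal 1 after treatment in 25 and animal 2 before in 13. Without the memory CD4+ library of animal 1 after treatment there were 57 missing regions in place of 32, and without both libraries there were 84 missing and 284 open ones.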

How the data were processed

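ATAC-seq peaks of 16 libraries were used as deposited. Per the submitters' processing notes, the authors worked in rheMac10 with Genrich 0.6, Bowtie2 2.3.4.1 and cutadapt 1.18. Settings, read shift and duplicate removal were not given in the sources used here. Each list was called from 1 library. It gives the area score per peak, deposited by the authors, and the summit's −log10 p, also deposited (2.42 to 16.3). Both belong to their own list, within which they served to rank or filter peaks. Read depth was unknown, so no intervals for counting error are given.

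Peaks sharing at least 1 bp were merged. Where a library had several peaks in a region, its strongest gave the percentile. Held-out readings were compared by exact permutation of 4 against 12 libraries, two-sided, with Benjamini-Hochberg adjustment and a threshold of 0.05. The tests were checked against scipy and tested on simulated data. The members and lists were chosen with earlier results of these data known. Readings of neighbours and of regions that other populations had to themselves were added later. Tests planned on the ranks of members were replaced by values, since the same libraries had chosen the members. Regions named were the 12 strongest and 3 weakest open ones, the 10 strongest and 2 weakest missing ones, and groups of 3 or more. Genes and sequence motifs were planned and not run, for want of a genome or annotation of this build. Titles gave the animals and the pairing across groups. File names number the second animal differently in each population, and the titles were followed. If they meant different animals, the held-out reading would still use animals that took no part in the choice, while pairs across populations would not hold there. No 2 lists differed in fewer than 4069 regions. Tools were matplotlib 3.10.9, pandas 2.3.3, scipy 1.17.1, numpy 2.4.6 and Python 3.11.15.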

Additional observations from a re-analysis of the deposited data

Results flagged for a closer look

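Values of the 4 libraries of each population were screened for one that lies far from the other 3, in 52 sets of 4. Chance alone marks about 1 in 20 such sets. The memory CD8+ library of animal 1 before treatment stood apart in 5 of them, which rest on 3 readings, since each count below repeats the regions behind a share. It was high in its share of regions open in memory CD4+ alone (35.1%, which is the 91 regions it shared with memory CD4+ cells and no other library). It was low in its share of regions missing in memory CD4+ alone, both as chosen from the other 15 libraries (55.2%, with 26 regions lacking a peak in this library alone) and as chosen at the other time (60.2%). The naive CD8+ library of animal 1 before treatment had 0.0% of the regions open in memory CD4+ alone, that is 0 regions shared with memory CD4+ cells only, against 0.592% and 1 region in each of the other 3. A difference of 1 region carries no information here.

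Among the 32 regions missing in memory CD4+ cells, the median percentile moved in opposite directions with treatment in 2 populations. It was lower after than before in naive CD4+ cells of both animals, by −5.00 points on average. The step was −1.58 points in animal 1, where 19 of the 32 regions (59.4%) ranked higher after, beside 59.3% of the regions open in every library. In animal 2 it was −8.42 points, where 10 of the 32 (31.25%) ranked higher after, beside 56.3%. The median was higher after in naive CD8+ cells of both animals, by 3.62 points on average. In animal 1, 71.9% of the 32 ranked higher after there, beside 65.1% of the regions open in every library. In animal 2 it was 59.4%, beside 51.9%. The difference between the populations was not tested.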

How the results depend on the processing

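Differences of the 4 held-out readings and of the 2 readings of neighbours kept their direction and passed the threshold under every alternative run for them, each library left out included. Left-out libraries moved the held-out animal difference between 43.4 and 57.0 points for open and between −56.6 and −42.5 for missing regions. With the replicate block, which permutes labels within each animal, adjusted p was 0.00128 for these and for the neighbours (exact permutation), and the block changed no other call. The counts depended on the settings. Open regions numbered 96 with a stricter threshold (−log10 p of at least 3.42), 168 to 259 with 1 library left out, and 284 without both the memory CD8+ library of animal 1 before and the memory CD4+ library of animal 1 after treatment. Missing regions numbered 15 when peaks had to cover 50% of a region, 32 to 58 with 1 library left out, and 84 without both. The mean rank of open regions was 23.6 with the stricter threshold and 25.2 with 50% coverage. For missing regions, naive CD4+ minus memory CD8+ was −7.62 points with the stricter threshold, −8.55 with lists of equal length, −7.69 on autosomes, and −10.5 to 2.73 with 1 library left out. Its sign turned with 50% coverage (2.44), without the memory CD8+ library of animal 1 before treatment (2.73) and without both libraries (1.29). Each of these settings also changed which regions counted as missing, and the cause was not tested. Naive CD4+ minus naive CD8+ was −8.10 with 50% coverage and −19.2 to −14.9 with 1 library left out, and memory CD8+ minus naive CD8+ was −21.8 to −8.04. The alternative without both libraries and those on neighbours were chosen after seeing the data. Depth was unknown: a weak peak may be missing from a shallower library, and 97 of the 168 open and 22 of the 32 missing regions rest on a peak with an area score under 300.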
